A study of Mus musculus with 2 samples.

Results

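The ligands and receptors of the platelet-derived growth factor (PDGF) and fibroblast growth factor (FGF) families were followed in cultured mouse cardiac myofibroblasts after knockdown of *Vgll3*, a transcription cofactor that binds TEAD factors. The 10 genes were chosen by symbol from the 24532 genes of the count table: *Pdgfa*, *Pdgfb*, *Pdgfc*, *Pdgfd*, *Pdgfra*, *Pdgfrb*, *Fgf2*, *Fgf7*, *Fgfr1* and *Fgfr2*. All 10 were found and all had reads in both libraries. The cells came from the infarcted hearts of C57BL/6 mice, given as C57BL/6J in the study's methods for isolated myofibroblasts, 3 days after myocardial infarction (MI), attached to plastic overnight, were taken as the CD45-negative fraction of a magnetic sort and were grown in medium with serum. They received 12.5 nM of a control siRNA (siCtrl) or of an siRNA against *Vgll3* (si*Vgll3*) with a lipid reagent, and their RNA was taken 72 h later. The series holds 1 siCtrl library and 1 si*Vgll3* library, made with a stranded mRNA kit. With a single siRNA against *Vgll3* and no second culture of either group, the spread between cultures is unknown, and every difference given here is between 2 libraries with no test.

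PDGF ligands are secreted dimers. The A and C chains act mainly through PDGFRα, the B chain acts through both PDGFRα and PDGFRβ, and the D chain acts mainly through PDGFRβ. In the heart, PDGFRα marks resident fibroblasts and PDGFRβ marks mural cells and activated fibroblasts, and both receptors drive growth and migration of mesenchymal cells. FGF ligands bind their receptors together with heparan sulfate chains. FGF2 is a mitogen for fibroblasts and endothelial cells, whereas FGF7 is made by mesenchymal cells and acts on a splice form of FGFR2 found mainly in epithelia.

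Of the receptors, *Pdgfrb* and *Fgfr2* were at 59.9% and 61.5% of their siCtrl level in the si*Vgll3* library, while *Pdgfra* and *Fgfr1*, the partner receptor in each family, differed little from it. For the ligands, *Pdgfa* was slightly below its siCtrl level, and *Pdgfc*, *Pdgfd*, *Fgf2* and *Fgf7* were slightly above it. *Pdgfb* was close to the lower end of detection in both libraries. Levels are given as TPM, which is scaled for gene length and library size, and differences as M, the log2 ratio of si*Vgll3* TPM to siCtrl TPM. A is log2 of the mean TPM of both libraries. A gene is called lower when M < −0.5 and A > 0, and higher when M > 0.5 and A > 0. The range in square brackets after M is the 95% Clopper-Pearson interval of the read ratio on the TPM scale, which covers counting error only, since reads are not independent molecules.

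Of the 9 ligand and receptor genes with A > 0, 2 were lower (22.2%), against 11.4% of all 11754 genes with A > 0, and 0 were higher, against 5.73% of all genes. For both lower genes the whole counting interval lay below −0.5, which held for 8.31% of all genes, and 3.76% of all genes had the whole interval above 0.5. The share among these genes rests on 2 receptors, and neither passed a threshold of 1 on M. Median M was 0.05 over the 9 genes and −0.05 over all genes with A > 0. The siCtrl library had 140815237 reads on genes and the si*Vgll3* library 125789276, with a median of 7361 reads from both together for a gene with A > 0. The targeted gene, *Vgll3*, was at 202 TPM under siCtrl and 84.0 TPM under si*Vgll3*, or 41.6% of the siCtrl level, with an M of −1.27 [−1.29, −1.24].

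**Figure D1:**
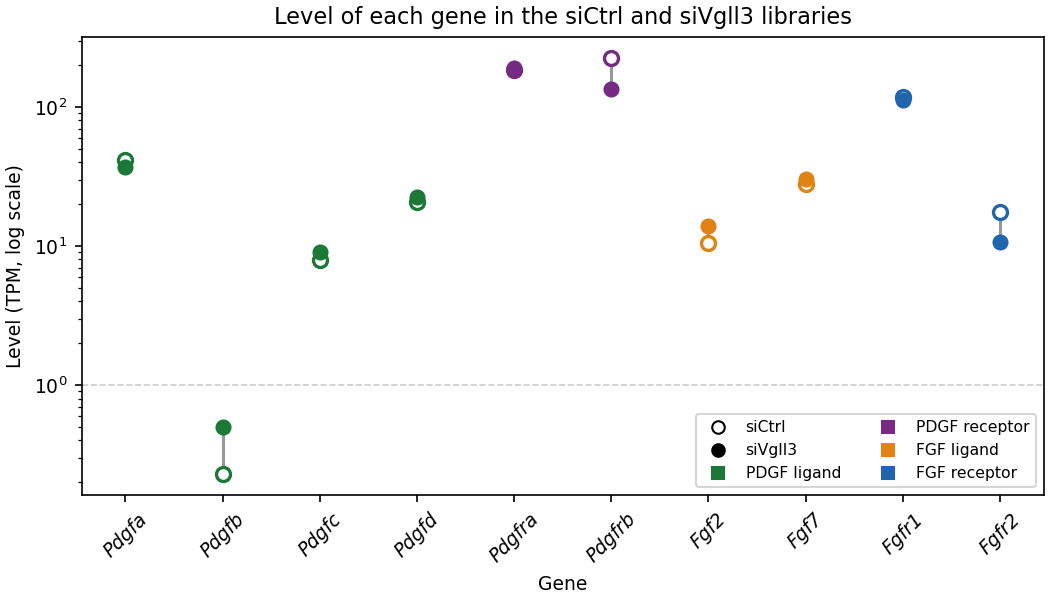
Level in TPM (log scale) of the 10 genes in the siCtrl library (open circles) and the siVgll3 library (filled circles), 1 library each, coloured by role, with a dashed line at 1 TPM. The open and filled circles of Pdgfrb stand apart at 227 and 136 TPM and those of Fgfr2 at 17.5 and 10.8 TPM, while Pdgfra and Fgfr1 nearly coincide and Pdgfb lies below 1 TPM.

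The study asks about VGLL3 together with miR-29b, a microRNA known for targeting collagen transcripts. The mature members of its family are therefore shown, as RefSeq gives them for GRCm38.p6, with the shared seed (bases 2 to 8) in capitals.
mmu-miR-29a-3p: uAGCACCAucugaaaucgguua
mmu-miR-29b-3p: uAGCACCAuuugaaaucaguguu
mmu-miR-29c-3p: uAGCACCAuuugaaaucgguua
All 3 share 1 seed, and the DNA letters that pair with it are TGGTGCT. Searched on the transcribed strand of the longest annotated 3′ UTR of each gene (GENCODE vM21, mm10), this heptamer was found in 5 of the 10 genes, all of them in the PDGF family. *Pdgfra* held 2 matches, and *Pdgfa*, *Pdgfb*, *Pdgfc* and *Pdgfrb* held 1 each. None was found in *Pdgfd*, *Fgf2*, *Fgf7*, *Fgfr1* or *Fgfr2*. Among all genes with A > 0 and a coding transcript, 16.1% of 11094 held a match, and among the 4012 of these with a 3′ UTR of 1500 to 4500 bases, 24.1% did. The 3′ UTRs of *Pdgfa*, *Pdgfb* and *Pdgfc* are shorter than this range and that of *Fgf2*, at 5311 bases, is longer. *Pdgfb* also had A below 0. Inside the range, *Pdgfra* and *Pdgfrb* held a match and *Pdgfd*, *Fgf7*, *Fgfr1* and *Fgfr2* did not. The shares over all genes are therefore not matched to the 10 genes. The matches outside *Pdgfrb* are printed with the 11 bases on either side, 5′ to 3′ on the strand of the gene, with the heptamer in capitals.
Pdgfa, chr5:138977130-138977158, minus strand, 3′ UTR: catactatgtaTGGTGCTtcattgccaat
Pdgfb, chr15:79997137-79997165, minus strand, 3′ UTR: cggacggccaaTGGTGCTtccctcacccc
Pdgfc, chr3:81213489-81213517, plus strand, 3′ UTR: tcttccttgtaTGGTGCTagagcttagcg
Pdgfra, first match, chr5:75196354-75196382, plus strand, 3′ UTR: tgagaccacaaTGGTGCTgttgaatgaag
Pdgfra, other match, chr5:75196515-75196543, plus strand, 3′ UTR: tatgaactgccTGGTGCTcttgaatagtc
The match in *Pdgfc* is the only one of these followed by an A. It starts at base 922 of a 3′ UTR of 1462 bases, while that in *Pdgfa* starts at base 70 of 1203 and that in *Pdgfb* at base 128 of 1408. The matches in *Pdgfra* start at bases 1265 and 1426 of 3115, and that in *Pdgfrb* starts at base 1662 of 1678. A match is a description of the sequence, and microRNAs were not measured in these libraries. By qRT-PCR, the study reported higher miR-29b and miR-29a after *Vgll3* knockdown in cardiac myofibroblasts. Beside these matches, M was 0.05 for *Pdgfra* with 2. With 1 match, M was −0.74 for *Pdgfrb*, −0.19 for *Pdgfa*, 0.19 for *Pdgfc* and 1.12 for *Pdgfb*, the last at A below 0. With none, M was −0.70 for *Fgfr2*, −0.08 for *Fgfr1*, 0.12 for *Pdgfd*, 0.13 for *Fgf7* and 0.39 for *Fgf2*. The part of miR-29 in these differences was not tested.

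The other sequence the study's setting raises is the TEAD motif, GGAATG. It was searched on both strands of the RefSeq promoters (GRCm38.p6), which run from 250 bases before to 50 bases after each start. Promoters were matched for 7 of the 10 genes, all but *Pdgfb*, *Pdgfrb* and *Fgfr1*. Of the 8 promoters of these 7 genes, that of *Pdgfc* held the motif, with 2 matches, and the others held none of these letters in the window. At least 1 match was present in 14.7% of all 32851 promoters and at least 2 matches in 1.36%. The windows around the matches in *Pdgfc* are printed on the strand of the gene, with the motif or its reverse complement in capitals.
Pdgfc, motif 137 bases before the start, chr3:81036267-81036296, plus strand: gggatccccttaGGAATGaaagacaagtta
Pdgfc, reverse complement 38 bases after the start, chr3:81036442-81036465, plus strand: gccgcctggcggCATTCCtcgccg
Beside these matches, the M of *Pdgfc* was 0.19, and the part of TEAD factors in it was not tested. In the study, an siRNA against *Tead1* left fibrotic gene expression in cardiac myofibroblasts unaffected. The study proposes that TEAD1 has no part in the fibrotic pathway of VGLL3.

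*Pdgfa* encodes the A chain and spans 138976014 to 139000792 of chromosome 5 in mm10. Its 2724 reads under siCtrl and 2213 under si*Vgll3* gave 41.9 and 36.8 TPM and an M of −0.19 [−0.27, −0.11]. It had the highest TPM of the ligands in both libraries, but *Fgf7* had more reads. By its reads per TPM, the counted model of *Pdgfa* spans 49.6% of the annotated transcript of 2060 bases, and with TPM rescaled to the annotated length *Pdgfa* was at 20.8 and 18.3 and *Fgf7* at 28.0 and 30.6, so the order of these ligands depends on the gene length used. Its share of the summed PDGF ligand TPM was 59.2% under siCtrl and 53.5% under si*Vgll3*, or 49.5% and 43.5% at annotated lengths. Reads on an antisense transcript, 6330403L08Rik, which shares 813 exon bases with *Pdgfa* in the annotation, could be counted on *Pdgfa* if strand was not used in counting. The kit keeps the strand of each read, but the sources used here do not state whether the counting used it.

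*Pdgfb*, the B chain gene, lies on chromosome 15 from 79995865 to 80024614. Only 43 reads under siCtrl and 87 under si*Vgll3* fell on it. Its level was therefore 0.228 and 0.497 TPM, an M of 1.12 [0.58, 1.69]. With an A of −1.46 it is not counted among the higher genes, and adding 1 TPM to each library before the ratio brought M to 0.29. The high M thus rests on few reads.

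*Pdgfc* lies on chromosome 3 from 81036416 to 81214040 and *Pdgfd* on chromosome 9 from 6168363 to 6534284. Both encode chains that are secreted in a latent form and need cleavage before they bind a receptor. *Pdgfc* was at 7.97 TPM in siCtrl (1788 reads) and 9.07 TPM in si*Vgll3* (1882 reads), an M of 0.19 [0.09, 0.28]. *Pdgfd* was at 20.6 TPM (2367 reads) and 22.4 TPM (2374 reads), an M of 0.12 [0.03, 0.20]. Neither passed a threshold, and 80.7% and 73.1% of all genes with A > 0 had an M below that of *Pdgfc* and *Pdgfd*. Summed over the 4 PDGF ligands, the level was 70.7 TPM under siCtrl and 68.7 TPM under si*Vgll3*, a log2 ratio of −0.04, and the sign of this small ratio was the opposite with CPM in place of TPM (0.08).

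*Pdgfra*, the gene of PDGFRα, lies on chromosome 5 from 75151322 to 75198206. Under siCtrl 71035 reads fell on it and under si*Vgll3* 69460, giving 184 and 189.8 TPM. Its M of 0.05 [0.03, 0.06] was the middle value of the 9 genes, and with CPM it was 0.13, outside that interval. *Pdgfra* was the gene with rank 912 by TPM in siCtrl and 879 in si*Vgll3*.

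*Pdgfrb*, the gene of PDGFRβ, lies on chromosome 18 from 61045127 to 61085067. Its 78289 reads under siCtrl and 43403 under si*Vgll3* gave 227 and 136 TPM. M was −0.74 [−0.76, −0.72], so the si*Vgll3* library held 59.9% of the siCtrl level. Only 5.90% of all genes with A > 0 had a lower M. In siCtrl *Pdgfrb* was the most abundant of the 10 genes, ahead of *Pdgfra*, and in si*Vgll3* this order was the reverse. The ratio of *Pdgfra* to *Pdgfrb* TPM was 0.810 under siCtrl and 1.40 under si*Vgll3*, and *Pdgfrb* made up 55.3% and 41.7% of the summed PDGF receptor TPM. That sum was 410 TPM under siCtrl and 326 TPM under si*Vgll3*, a log2 ratio of −0.33.

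*Pdgfrb* is also expressed by pericytes and other mural cells, so markers of these were set beside it. The summed TPM of the 8 pericyte and mural markers came to 111 and 112, and most of it was *Mcam*, at 94.9 and 102 TPM. *Notch3*, at 14.1 and 7.97 TPM, was lower, with an M of −0.82 [−0.88, −0.76]. It was 1 of the 2 markers of this list with A > 0 (50%, against 11.4% of all genes), and *Mcam*, the other, had an M of 0.11. *Higd1b* had 0 reads in both libraries, which allows up to 3 reads, *Kcnj8* had 0 and 24 reads and *Abcc9* had 6 and 20 reads. *Rgs5* (133 and 107 reads), *Cspg4* (568 and 416) and *Myh11* (205 and 71) were all below 1.2 TPM in both. With A below 0, the M of these was −0.21, −0.34 and −1.43. The part of mural cells in the *Pdgfrb* difference was not tested, and in bulk RNA fewer cells of a type and less RNA per cell cannot be told apart.

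**Figure D2:**
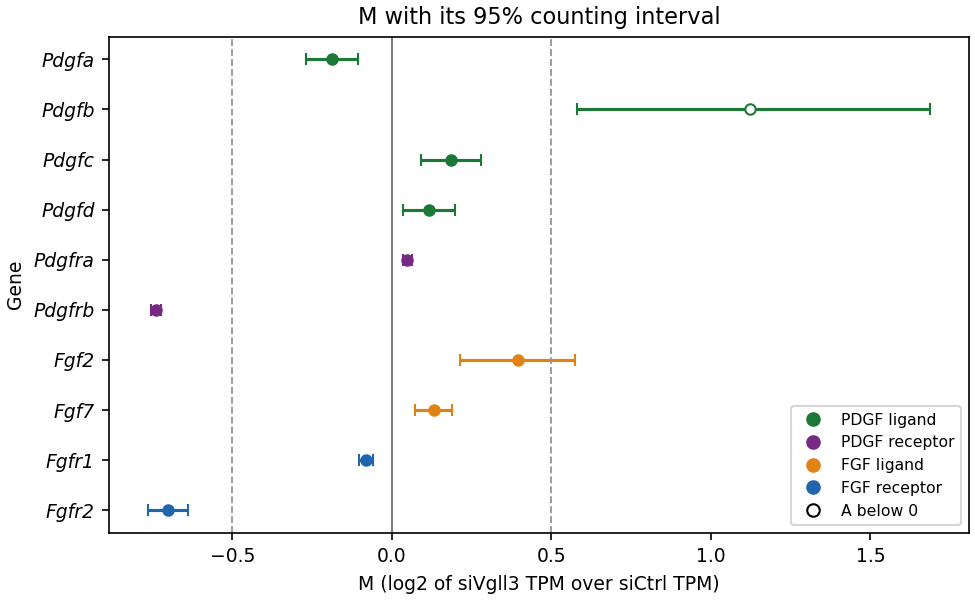
M, the log2 ratio of siVgll3 TPM to siCtrl TPM, for each of the 10 genes, with bars for the 95% counting interval, dashed lines at −0.5 and 0.5 and an open circle for the gene with A below 0. The intervals of Pdgfrb and Fgfr2 lie wholly below −0.5, that of Pdgfb lies wholly above 0.5 but at an A of −1.46, and the interval of Fgf2 reaches past 0.5.

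*Fgf2* encodes basic FGF and lies on chromosome 3 from 37348477 to 37410106. It was at 10.5 TPM under siCtrl and 13.8 TPM under si*Vgll3*, with 467 and 568 reads. Its M of 0.39 [0.21, 0.57] did not pass the threshold, although its interval reached above 0.5, and it was the highest M of the 9 genes with A > 0. The value rests on a short gene model, since *Fgf2* had 44.4 reads per TPM in siCtrl, against 345 for *Pdgfrb*, while the annotated *Fgf2* transcript of 5973 bases is longer than that of *Pdgfrb* at 5407 bases. By that ratio the counted model covers 11.7% of the transcript, so the level of *Fgf2* relative to other genes is uncertain. *Fgf2* also shares 640 exon bases with *Nudt6* on the opposite strand, and *Nudt6* had 339 reads under siCtrl and 201 under si*Vgll3*. The same limit applies to this pair: if the counting did not use strand, reads of *Fgf2* and *Nudt6* could be counted on either.

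*Fgf7*, also called keratinocyte growth factor, lies on chromosome 2 from 126034658 to 126091185. Its level was 27.9 TPM in siCtrl (4752 reads) and 30.5 TPM in si*Vgll3* (4815 reads), an M of 0.13 [0.07, 0.19]. *Fgf7* made up 72.6% of the summed TPM of *Fgf2* and *Fgf7* in siCtrl and 68.8% in si*Vgll3*. At annotated lengths, with *Fgf2* at 1.23 and 1.62, the share of *Fgf7* was 95.8% and 94.99%. The deposited TPM of the pair summed to 38.4 and 44.3, a log2 ratio of 0.21, and at annotated lengths the ratio was 0.14.

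*Fgfr1*, the main FGF receptor gene of these cells by level, lies on chromosome 8 from 25518759 to 25575718. It was at 118 TPM under siCtrl and 112 TPM under si*Vgll3*, with 36909 and 32198 reads. M was −0.08 [−0.10, −0.06], close to the median of all genes, and 44.7% of them had a lower M.

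*Fgfr2* lies on chromosome 7 from 130162451 to 130266808. With 5740 reads under siCtrl and 3237 under si*Vgll3*, its level was 17.5 and 10.8 TPM. Its M of −0.70 [−0.76, −0.64] left 61.5% of the siCtrl level, and 6.58% of all genes had a lower M. *Fgfr2* therefore stood close to *Pdgfrb* in M but at a far lower level in both libraries. *Fgfr1* and *Fgfr2* together summed to 136 TPM under siCtrl and 122 TPM under si*Vgll3*, and the share of *Fgfr2* in that sum was 12.9% and 8.79%. The ratio of *Fgfr1* to *Fgfr2* was 6.76 and 10.4. Counts per gene do not separate the splice forms of *Fgfr2*.

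By level, the siCtrl order was *Pdgfrb*, *Pdgfra*, *Fgfr1*, *Pdgfa*, *Fgf7*, *Pdgfd*, *Fgfr2*, *Fgf2*, *Pdgfc* and *Pdgfb*. In si*Vgll3*, *Pdgfra* stood ahead of *Pdgfrb* and *Fgf2* ahead of *Fgfr2*, and the rest kept their places. The places of *Fgf2*, *Pdgfa* and *Pdgfd* rest on short counted models, of 11.7%, 49.6% and 63.0% of the annotated transcript. For *Fgfr2* the counted model comes to 120% of the annotated 4311 bases, so its length is uncertain too. At annotated lengths *Fgf2* stood below *Pdgfc* in both libraries, *Fgf7* led the ligands, and *Pdgfrb* still led in siCtrl and *Pdgfra* in si*Vgll3*. *Fgfr2* stood only narrowly above *Pdgfa* in siCtrl, at 20.9 against 20.8, and above *Pdgfd* at 13.0. In si*Vgll3* *Fgfr2*, at 12.9, stood below *Pdgfa* at 18.3 and *Pdgfd* at 14.1. In the deposited TPM, exact Poisson intervals of the levels of neighbours did not overlap in either library, the closest being *Fgfr2* at 10.4 to 11.1 TPM and *Pdgfc* at 8.66 to 9.49 TPM in si*Vgll3*. These intervals hold no spread between cultures, so the order of neighbours is that of these libraries. Receptor TPM exceeded ligand TPM in both families, by a ratio of 5.80 in siCtrl and 4.74 in si*Vgll3* for PDGF and of 3.53 and 2.76 for FGF. At annotated lengths these ratios were 9.48 and 7.46 for PDGF and 4.67 and 3.79 for FGF.

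**Figure D3:**
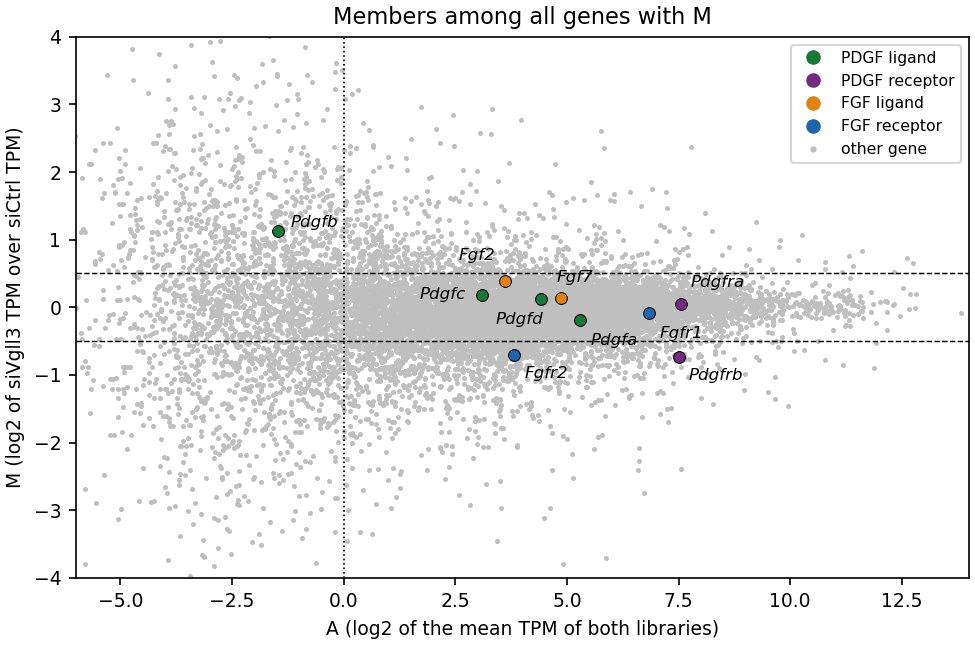
M against A for all 14149 genes with both values (grey), with the 10 genes coloured by role, dashed lines at M of −0.5 and 0.5 and a dotted line at A of 0. Pdgfrb and Fgfr2 lie below the lower dashed line, Pdgfb lies to the left of the dotted line, and 82 genes are outside the axes.

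The remaining FGF genes were low, except the receptor gene *Fgfrl1*. Of 20 other *Fgf* genes, 10 had 0 reads in both libraries and 2 had A > 0. Of all 24532 genes, 8626 had 0 reads in both and 11754 had A > 0. The 20 include *Fgf11* to *Fgf14*, whose products stay inside the cell and are not secreted ligands. Of the 2 with A > 0, *Fgf18* was lower (50%, against 11.4% of all genes) and 0 were higher, against 5.73% of all genes. *Fgf18* was at 1.75 TPM under siCtrl and 0.639 TPM under si*Vgll3* (177 and 60 reads), an M of −1.45 [−1.90, −1.02]. *Fgf13* was at 0.985 and 1.38 TPM, and *Fgf1*, an acidic FGF that binds all FGF receptors, was at 0.836 and 0.833 TPM. Of the other receptor genes, *Fgfrl1*, which encodes a receptor without a kinase domain, was at 72.5 TPM under siCtrl and 56.7 TPM under si*Vgll3*, an M of −0.35 [−0.39, −0.31]. *Fgfr3* was at 0.601 and 0.869 TPM and *Fgfr4* at 0.0846 and 0.174 TPM. The klotho co-receptor genes *Klb* and *Kl* had 0 reads in both libraries.

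Vascular endothelial growth factors (VEGF) are the nearest relatives of the PDGF ligands. Of 8 VEGF ligand and receptor genes with A > 0, 3 were lower (37.5%, against 11.4% of all genes) and 1 was higher (12.5%, against 5.73%). The lower genes were *Vegfd*, at 232 TPM under siCtrl and 140 TPM under si*Vgll3* (M of −0.73), *Vegfc*, at 34.1 and 21.1 TPM (−0.69), and the co-receptor gene *Nrp2*, at 26.4 and 13.7 TPM (−0.94). *Vegfc* and *Vegfd* encode the ligands known for lymphatic vessel growth. *Vegfa*, the main angiogenic ligand, was at 77.2 and 78.2 TPM, an M of 0.02, and *Nrp1* was at 42.6 and 46.1 TPM. The higher gene, *Flt4*, was at 4.50 and 6.76 TPM, and its interval was not wholly above 0.5.

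Among 6 proteases that process PDGF chains and had A > 0, 1 was lower (16.7%, against 11.4% of all genes). This was *Pcsk6*, at 41.9 TPM under siCtrl and 26.8 TPM under si*Vgll3*, an M of −0.64 [−0.69, −0.60]. *Plat*, the tissue plasminogen activator that cleaves PDGF-C, was at 131 and 93.9 TPM, an M of −0.48 that missed the threshold. *Furin*, a proprotein convertase, was at 111 and 105 TPM. All 6 had an M below 0, as did 57.0% of all genes with A > 0, and their median was −0.27.

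Heparan sulfate proteoglycans hold FGF and some PDGF chains at the cell surface. Of 11 core protein genes with A > 0, 4 were lower (36.4%, against 11.4% of all genes) and 0 were higher, against 5.73% of all genes. An M below 0 was found for 10 of the 11 (90.9%, against 57.0% of all genes), with a median of −0.44. The glypican gene *Gpc3* was at 26.2 TPM under siCtrl and 9.21 TPM under si*Vgll3*, an M of −1.51 [−1.60, −1.42]. *Gpc6* was at 75.3 and 50.02 TPM and *Gpc4* at 235 and 160 TPM, and the syndecan gene *Sdc3* was at 261 and 175 TPM. *Sdc4*, at 279 and 205 TPM, and *Sdc2*, at 216 and 192 TPM, did not pass the threshold. Summed over the list, core protein genes reached 1476 TPM under siCtrl and 1144 under si*Vgll3*. Among 15 genes of enzymes that build or trim the chains, 1 was lower and 1 was higher, with a median of −0.09. Each was 6.67% of the list, against 11.4% lower and 5.73% higher over all genes. *Sulf2*, a sulfatase that removes sulfate groups from the chains, was lower at 126 and 81.2 TPM, and *Hpse*, the heparanase that cuts them, was higher at 3.02 and 4.75 TPM. *Sulf1* was at 155 and 134 TPM, *Ext1* at 146 and 138 TPM and *Ext2* at 142 and 111 TPM.

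Downstream of the receptors, 28 of 31 adaptor and transducer genes (90.3%) lay between the thresholds, close to the 82.9% of all genes, and the median was −0.03. *Ptpn11*, which encodes the phosphatase SHP2 that carries receptor signals to RAS, was lower at 120 TPM under siCtrl and 48.3 TPM under si*Vgll3*, an M of −1.31 [−1.33, −1.28]. *Pik3r1*, a regulatory subunit of PI3-kinase, was higher at 19.9 and 36.1 TPM, an M of 0.86 [0.82, 0.89]. *Pik3r2*, another regulatory subunit, was lower at 50.9 and 35.1 TPM, with an interval not wholly below −0.5, and it was no longer called with CPM, TMM factors, DESeq2 size factors or centred M. *Akt1* was at 355 and 422 TPM, *Mapk3* at 281 and 253 TPM and *Shc1* at 169 and 152 TPM.

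Of 19 genes that act on the receptors or the ERK kinases, most of them as restraints, 2 were lower and 1 was higher, with a median of 0.03. These shares, 10.5% and 5.26%, were close to the 11.4% and 5.73% of all genes. *Il17rd*, also called Sef, which binds FGF receptors, was at 2.78 TPM under siCtrl and 1.08 TPM under si*Vgll3*, an M of −1.36, and *Lrig3* was at 5.05 and 3.09 TPM, an M of −0.71. *Flrt2*, whose product binds FGF receptors but is not known as a restraint, was the higher gene. It was at 14.7 and 21.3 TPM, with an interval not wholly above 0.5. *Spry1* was at 210 and 166 TPM, *Spry2* at 83.1 and 80.8 TPM and *Lrp1*, an endocytic receptor that binds PDGFRβ, at 204 and 151 TPM.

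Of 13 genes of the early transcriptional response to growth factors, 2 were lower (15.4%, against 11.4% of all genes). In the same list 3 were higher (23.1%, against 5.73%), and the median was 0.24. *Ier3* was at 52.6 TPM under siCtrl and 149 TPM under si*Vgll3*, an M with an interval from 1.45 to 1.56, *Fosl1* at 21.9 and 40.9 TPM, an M of 0.90, and *Fos* at 14.6 and 23.4 TPM, an M of 0.68. *Egr3* was lower at 6.41 and 4.01 TPM, an M of −0.68, and *Egr1* at 40.1 and 28.0 TPM, an M of −0.52 with an interval not wholly below −0.5. *Junb*, at 127 and 149 TPM, and *Ier2*, at 46.6 and 37.2 TPM, did not pass. With CPM or with centred M, 1 gene of the list was lower and 5 were higher, and with TMM factors or DESeq2 size factors 1 was lower and 4 were higher, *Egr1* losing its call in each.

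**Figure D4:**
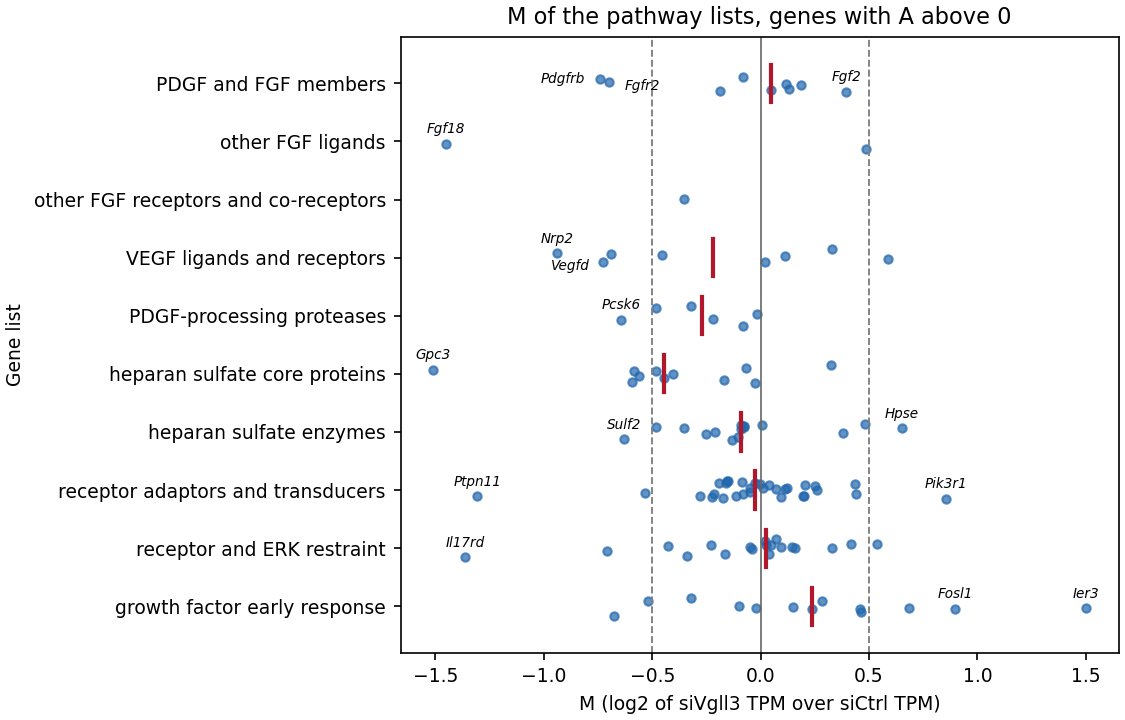
M of each gene with A above 0 in the list of 10 ligands and receptors (members, top row) and in the 9 lists of related pathway genes, 1 point a gene, with a red bar at the median of lists of at least 5 genes and dashed lines at −0.5 and 0.5. The heparan sulfate core proteins have the lowest median, −0.44, and the early response genes the highest, 0.24.

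The labelled cell type was checked against defining markers. All 10 fibroblast and myofibroblast markers had reads in both libraries, and their TPM summed to 19385 under siCtrl and 15208 under si*Vgll3*. Of these markers, 6 were lower (60%, against 11.4% of all genes) and 2 were higher (20%, against 5.73%). Endothelial markers summed to 33.8 and 31.2 TPM, and the list's median M was 0.29. Of the 6 with A > 0, *Tek* was lower (16.7%, against 11.4% of all genes) at 19.5 and 13.4 TPM. Leukocyte markers summed to 15.7 and 14.4 TPM, with *Ptprc*, *Adgre1*, *Itgam* and *Fcgr1* at 0 reads in both. Of the 5 leukocyte markers with A > 0, *Lyz2* was lower (20%, against 11.4% of all genes), at 10.9 and 3.13 TPM. In this list 3 were higher (60%, against 5.73%), led by *Cd53* at 0.760 and 5.91 TPM. Epicardial and mesothelial markers summed to 56.1 and 41.3 TPM, and all 5 passed a threshold, while 82.9% of all genes lay between the thresholds. *Upk3b* (M of −1.68), *Lrrn4* (−1.67) and *Wt1* (−0.67) were lower, and *Krt19* (2.56) and *Msln* (1.91) were higher. Of the cardiomyocyte markers, *Myh6*, *Myh7*, *Actc1*, *Nppa* and *Ryr2* had 0 reads in both, *Tnni3* had 0 and 10 reads, and the summed TPM, 60.05 and 10.4, was that of *Tnnt2*. The part of these cell types in the ligand and receptor differences was not tested.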

How the data were processed

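RNA was measured in 2 libraries, 1 each of siCtrl and si*Vgll3*. The submitters' processing notes and the methods name FastQC, Trimmomatic, HISAT2 with mm10 and StringTie, and the versions, annotation release and strand setting are not given in the sources used here. The authors deposited raw read counts per gene, without normalisation, and TPM per gene, scaled for gene length and library size. M and A were computed from TPM with nothing added. The study's thresholds for decreased genes, M < −0.5 and A > 0, were used, and M > 0.5 is the same rule reversed. The study does not state how its M and A were formed, and the 1341 lower genes found here are not the number it gives. Counting intervals came from the counts (SciPy 1.17.1). In simulated reads with counting error only, 95.3% of the intervals held the true change. That setting is the intervals' own assumption, so it could not test them against spread between cultures. edgeR 4.0.16 and DESeq2 1.42.0 were used for scaling only, as no replicate test could be made. The ligands, receptors and pathway and marker lists were chosen with earlier results of these data known. Named genes were all 10 ligands and receptors, *Vgll3*, the 3 genes of largest mean TPM in each pathway list and up to 5 whose interval lay past a threshold, and markers at 0 reads. Other genes named were chosen after their values were seen. A count of 0 allows up to 3 reads by counting error alone. The alternatives were CPM, TMM scaling, DESeq2 size factors, an added pseudocount, other filters and thresholds, and another definition of A. TPM rescaled to annotated transcript lengths, from the reads per TPM of each gene, was added after seeing the data. Gene positions are those of RefSeq for GRCm38.p6, the assembly also called mm10, and 3′ UTRs came from GENCODE vM21.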

Additional observations from a re-analysis of the deposited data

How the results depend on the processing

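No paired analysis was possible because each group has a single library, and for the same reason no library could be left out. The count of 2 lower ligand and receptor genes was kept under each alternative but a threshold of 1 on M, which gave 0. The count of higher genes was 0, or 1 (*Pdgfb*) once genes with A below 0 were admitted. With CPM in place of TPM, the log2 ratio of the summed PDGF ligands was 0.084, that of the PDGF receptors −0.24 and that of the FGF receptors −0.10. With TPM rescaled to annotated transcript lengths, chosen after seeing the data, the PDGF receptors gave −0.35 and the FGF ligands 0.14. The M of each of the 10 genes kept its sign under the 6 alternatives for it, ranging from −0.74 to −0.69 for *Pdgfrb* and from −0.70 to −0.65 for *Fgfr2*. That of *Pdgfb* ranged from 0.29 to 1.18. Of 180 recomputed counts for the other lists, 150 stayed within 1.5 times the value reported. With CPM, TMM factors, DESeq2 size factors or centred M, the higher genes were 2 for the heparan sulfate enzymes and 1 for the other *Fgf* genes. With 1 TPM added they were 0 for the VEGF genes. Culture-to-culture spread could not be measured.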

Other observations

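Low *Fgf* genes outside the naming rule differed in both directions. *Fgf10*, a mesenchymal ligand of the epithelial splice form of FGFR2, had 0 reads under siCtrl and 40 under si*Vgll3*. If the 0 holds counting error only, this is at least 14.9-fold higher in CPM, against a floor of 3 reads in the siCtrl library. *Fgf5* had 0 and 9 reads, at least 3.36-fold higher by the same floor and on the same condition. Whether these 0s come from how reads were assigned to genes was not tested. *Fgf11* had 181 reads under siCtrl and 91 under si*Vgll3*, *Fgf9* had 131 and 47, and *Fgf23* had 46 and 12. All of these had A below 0 or no M, were chosen after their values were seen, and have no replicate. Of all 24532 genes, 27 had 0 reads in siCtrl with at least 40 in si*Vgll3*, and 21 had the reverse. The cutoff of 40 is the read count of *Fgf10*, which is therefore among the 27.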
